A study of Macaca mulatta and Mus musculus and Rattus norvegicus with 12 samples.

Results

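The genes described here are 9 receptors through which hormones and calcium act on bone: PTH1R, VDR, ESR1, ESR2, NR3C1, THRA, THRB, GHR and CASR. They were chosen by gene symbol, with earlier results of these data known, from the 13982 symbols that the tables of the 3 species share. Each of the 9 had 1 row in every species, so none was absent from the tables. There were 7 among the 10536 symbols that had at least 1 read in mouse, rat and macaque and were tested together. ESR2 and CASR were not among them, because ESR2 had no read in rat and CASR had none in macaque.

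Bone was prepared so as to keep mainly osteocytes, the cells buried in the mineralized matrix, and its RNA was sequenced to compare the calvaria, the flat bone of the skull roof, with the tibia, a long bone that carries body weight. The groups were calvaria and tibia of C57BL6 mice aged 4 months (2 libraries each), of Wistar rats aged 6 months (1 library each) and of rhesus macaques (3 libraries each). The labels give the macaques as 4 to 6 months old, whereas the methods of the study give the same figures in years. By those methods all animals were female, a mouse library pooled 3 animals, a rat library pooled 2 and a macaque library came from 1. No group carried a treatment or an altered allele. The libraries held between 7951585 and 16826535 reads on named genes, and the mouse libraries (M4 and M8 from calvaria, M5 and M7 from tibia) were deeper than the macaque libraries (G1, G3 and T1 from calvaria, G2, G4 and T2 from tibia). The labels do not say which calvaria and tibia came from the same animals, and p-values measure the spread between these libraries.

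Bone is a target of many hormones. PTH1R is the G protein-coupled receptor for parathyroid hormone and its related peptide and is abundant in cells of the osteoblast lineage. CASR is the G protein-coupled receptor that senses extracellular calcium, best known for control of parathyroid hormone release. VDR, the oestrogen receptors ESR1 and ESR2, the glucocorticoid receptor NR3C1 and the thyroid hormone receptors THRA and THRB are nuclear receptors, transcription factors that are switched by their ligand. GHR is a cytokine-type receptor of the cell surface that signals through JAK2 and STAT5 and raises IGF1.

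The labelled tissue was checked against 8 osteocyte markers, among them SOST, DMP1, MEPE and PHEX. Their summed level was 1137 to 2021 CPM (reads per 1000000 reads on named genes) in mouse calvaria against 8179 to 10573 in mouse tibia, 563 against 7296 in rat, and 4682 to 5816 against 7876 to 19551 in macaque. FGF23, an osteocyte hormone, was at 0 in both rat libraries and was the only marker of the 8 at 0 throughout a species. The summed level was thus higher in tibia in each species, without overlap between the libraries of mouse and macaque, but the single markers were not all so. In macaque SOST and MEPE were called higher in tibia (-1.53 and -1.40) and CAPG higher in calvaria (0.98), DMP1 overlapped between the sites at -0.21, and 4 of the 7 tested lay below 0. The same libraries also held other cells: the 6 neutrophil markers summed to 90540 to 113302 CPM in mouse calvaria and 58007 to 63302 in mouse tibia. In such bulk samples fewer cells of a type and less RNA per cell cannot be told apart.

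Levels were first compared between genes per exonic length, as RPKM, which is CPM divided by the length of the exons in kilobases. PTH1R was the highest of the 9 receptors at both sites of all 3 species, with group means of 94.7 and 66.9 RPKM in mouse calvaria and tibia, 19.1 and 30.1 in rat, and 119.8 and 139.6 in macaque. On its mean over all libraries it lay above 96.6% of symbols with a read in mouse, 86.8% in rat and 96.9% in macaque. NR3C1 came next or close to it in every group, between 14.7 RPKM in rat calvaria and 62.3 in macaque tibia. ESR2 and CASR were the lowest, at group means of at most 0.139 RPKM.

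Between these ends the order of the receptors differed from species to species. In mouse calvaria the order was PTH1R, VDR, NR3C1, THRA, GHR, ESR1 and THRB. The library ranges of PTH1R and VDR, of VDR and NR3C1, and of GHR and ESR1 overlapped there, and in mouse tibia those of PTH1R and VDR and of GHR and ESR1 did. In macaque the order at both sites was PTH1R, NR3C1, ESR1, GHR, THRA, THRB and VDR, and PTH1R, NR3C1 and ESR1 stood apart from each other without overlap. GHR and THRA overlapped at both macaque sites, THRB and VDR in calvaria, and THRA and THRB in tibia. In rat, with 1 library a site, the order could be read only as single values. RPKM values rest on the exonic length that each table gives, and for PTH1R this was 2956 bases in mouse, 8173 in rat and 2136 in macaque, so levels are not compared as tests between species.

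**Figure D1:**
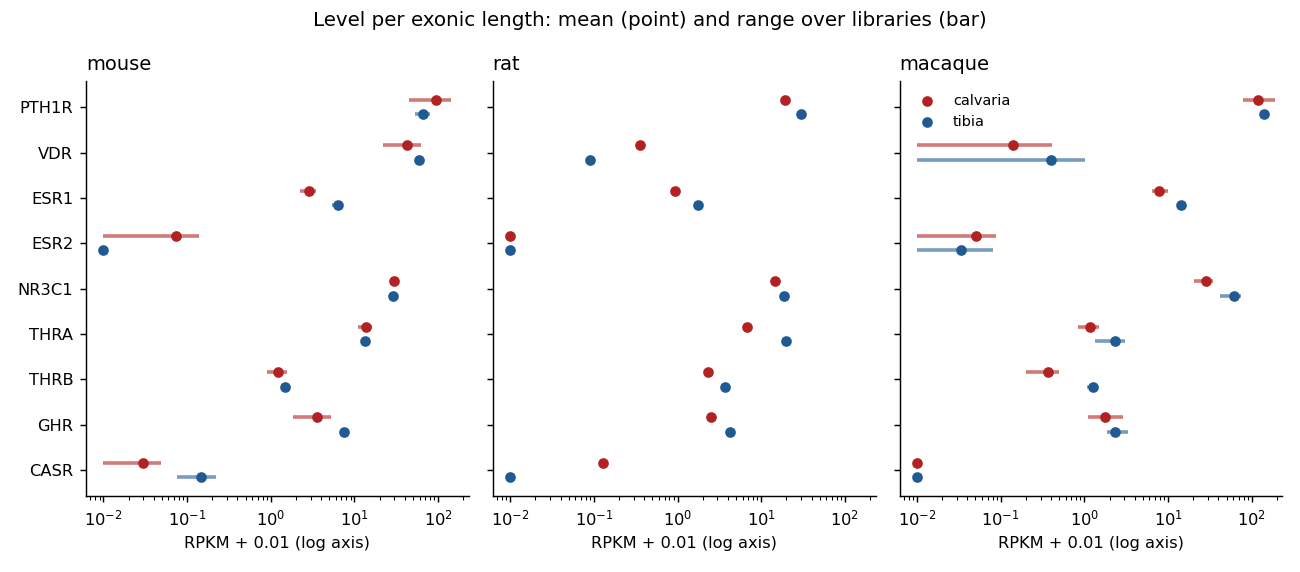
Level of the 9 receptor genes per exonic length, as RPKM plus 0.01 on a log axis, in mouse, rat and macaque; points are group means and bars the range over libraries (1 library a site in rat). PTH1R is highest in each group (19.1 to 139.6 RPKM), VDR is high in mouse alone (42.2 and 59.0), and ESR2 and CASR lie at the lower end.

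VDR showed the widest gap between species. The receptor for active vitamin D stood at 42.2 ± 28.6 RPKM (SD, n = 2) in mouse calvaria and 59.0 ± 1.95 (SD, n = 2) in mouse tibia. The rat calvaria held 10 reads and the rat tibia 2, or 0.344 and 0.0801 RPKM. In macaque it had 6, 0 and 0 reads in the 3 calvaria libraries and 15, 0 and 3 in the tibia libraries, where a count of 0 allows up to 3 reads or about 0.189 RPKM. Per length, VDR was 0.828 to 2.09 times NR3C1 of the same library in mouse and at most 0.0234 times NR3C1 in rat and macaque. Several genes used widely by cells also had rows at 0 in rat, among them COL1A2 for a chain of type I collagen, HSP90AA1 and GNA11, so a low value in the rat table does not show that the gene is silent. The part that gene models play in the gap was not tested.

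The 2 thyroid hormone receptors also kept different proportions. Per length THRA was 8.73 to 12.4 times THRB in the 4 mouse libraries, 2.91 times in rat calvaria and 5.32 times in rat tibia. In macaque it was 2.94 to 4.37 times THRB in calvaria and 1.02 to 2.48 times in tibia, with no overlap between the sites. The macaque THRA row covered 1160 bases and held few reads (8 to 28 a library), and a further row described as thyroid hormone receptor alpha-like, LOC699780, held 1 to 16, so reads of this gene may be divided between rows.

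The plot of every library shows the reads behind the comparison of sites. Mouse and macaque were fitted separately by the quasi-likelihood test of edgeR over the 10536 genes, with p-values adjusted after Benjamini and Hochberg. A gene was called differentially expressed (DE) where the false discovery rate was below 0.2 and the fold change exceeded 1.1. Those thresholds are the ones the study used. Values below are normalized CPM, which is CPM over the tested genes after TMM scaling, and fold changes are log2 of calvaria over tibia, so that values below 0 are higher in tibia.

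**Figure D2:**
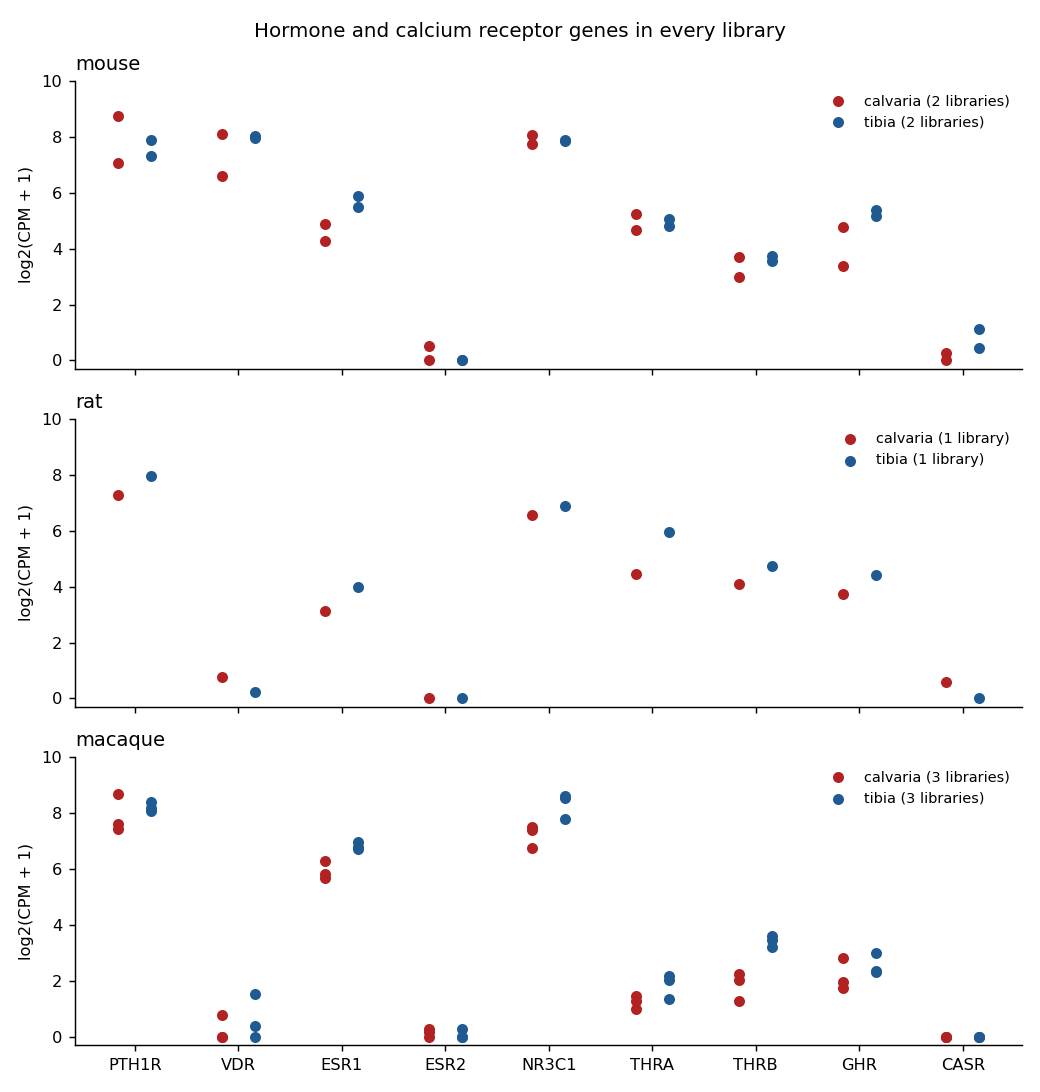
CPM over reads on named genes, as log2 of the value plus 1, for the 9 receptor genes in each of the 12 libraries; red points are calvaria and blue points tibia. In macaque all 3 tibia points lie above all 3 calvaria points for ESR1, NR3C1 and THRB, whereas in mouse the calvaria points of PTH1R, VDR and GHR lie far apart.

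In macaque ESR1, NR3C1 and THRB were called, and each was higher in tibia. These were 3 of the 7 receptors tested, beside 26.7% of all genes called and 12.6% of all genes called higher in tibia. The same 3 were the receptors whose calvaria and tibia libraries did not overlap, beside 30.4% of all genes. All 7 fold changes lay below 0, with a median of -0.75, where 49.4% of all tested genes lay below 0 and their median was 0.01. When all 18894 macaque symbols were tested, the same 3 were called beside 19.7% of symbols.

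ESR1, the receptor through which oestrogen restrains bone resorption, had 117.8, 83.3 and 94.3 normalized CPM in macaque calvaria G1, G3 and T1 and 167.3, 142.2 and 162.9 in tibia G2, G4 and T2. The lowest tibia library lay above the highest calvaria library. The means were 98.5 ± 17.6 (SD, n = 3) and 157.5 ± 13.4 (SD, n = 3), 1.60-fold higher in tibia, with a log2 fold change of -0.68 (SE 0.18) and an edgeR quasi-likelihood adjusted p of 0.0205. It rested on 434 to 1116 reads a library. With an offset for exonic length the fold change was -0.36 with an edgeR quasi-likelihood adjusted p of 0.196, still called but close to the threshold.

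NR3C1, which binds cortisol and other glucocorticoids, had 252.1, 297.5 and 182.3 normalized CPM in macaque calvaria and 497.8, 535.0 and 331.3 in tibia. Here too no calvaria library reached any tibia library, and within each site the T library was the lowest. The means of 244 ± 58.0 and 454.7 ± 108.5 (SD, n = 3 each) gave a log2 fold change of -0.90 (SE 0.21), 1.86-fold higher in tibia, with an edgeR quasi-likelihood adjusted p of 0.0115. With 1007 to 3092 reads a library it was, after PTH1R, the most deeply counted of the receptors over the macaque libraries.

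THRB had the widest difference of the 3. This thyroid hormone receptor isoform, known above all from liver and the pituitary, had 12, 32 and 29 reads in macaque calvaria and 66, 88 and 103 in tibia. In normalized CPM the calvaria libraries stood at 2.18, 6.15 and 5.25 and the tibia libraries at 10.9, 15.2 and 15.0. G1 was the lowest calvaria library, yet the gap to tibia remained above the highest of them. The log2 fold change was -1.60 (SE 0.41), 3.03-fold higher in tibia, with an edgeR quasi-likelihood adjusted p of 0.0178.

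Marker genes of other cells differed between the same macaque libraries. The 5 neutrophil markers with a row summed to 36483 to 53692 CPM in calvaria and 7791 to 14153 in tibia, and the 4 erythroid markers to 1409 to 1637 and 306 to 428. B cell and adipocyte markers were likewise higher in calvaria without overlap (26.9 to 28.6 against 5.99 to 15.0, and 1490 to 2362 against 756 to 1434), with CD79B and CIDEC at 0 throughout. Besides the osteocyte markers, the fibroblast and periosteum markers (933 to 1100 against 1351 to 2008) and the chondrocyte markers (17.9 to 26.3 against 39.6 to 91.3, with COMP at 0) were higher in tibia without overlap when summed. Among the latter HAPLN1 was called higher in tibia (-2.17) and COL2A1 higher in calvaria (1.79). Osteoblast, osteoclast, endothelial and skeletal muscle markers, the last with CKM at 0, overlapped between the sites. The part of these markers in the differences of ESR1, NR3C1 and THRB was not tested.

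The other receptors of macaque did not pass. PTH1R had 292.1, 671.7 and 287.6 normalized CPM in calvaria and 386.9, 366.8 and 512.5 in tibia, so that calvaria library G3 lay above all others and G1 and T1 below all tibia libraries. Its fold change was -0.02 (SE 0.27) with an edgeR quasi-likelihood adjusted p of 0.976, and without G3 it was called at -0.54 with an adjusted p of 0.134, beside 19.0% of genes called without G3. THRA stood at 1.46, 2.88 and 2.35 in calvaria and 4.12, 4.85 and 2.34 in tibia, with T2 within the calvaria range. Its fold change was -0.75 (SE 0.57) and its edgeR quasi-likelihood adjusted p 0.444. Summed with the alpha-like row, a choice made after the data were seen, it was -0.71 with an adjusted p of 0.338.

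GHR, whose ligand drives growth in length, overlapped between the macaque sites. Its calvaria libraries stood at 4.37, 3.84 and 10.3 normalized CPM and its tibia libraries at 5.28, 5.54 and 10.5, so T1 and T2 were the highest at their sites. The fold change was -0.20 (SE 0.47) with an edgeR quasi-likelihood adjusted p of 0.825, and it ran from -0.81 without T1 to 0.19 without T2. VDR, with its 24 reads in all, gave -1.35 (SE 1.50) and an edgeR quasi-likelihood adjusted p of 0.618, a difference not detectable at this depth. Its direction rested on single libraries, at -5.55 without G1 and 0.63 without G2. ESR2 had 1, 0 and 2 reads in macaque calvaria and 0, 0 and 2 in tibia, and CASR had none in any macaque library, which allows up to about 0.0996 RPKM in calvaria.

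The letters of the macaque labels, G or T, divide the libraries in a way that the labels do not explain, and each letter holds both sites. On the log2 scale of normalized CPM plus 1, ESR1 was lower in calvaria by -0.63 among the G libraries and by -0.78 between the T libraries. NR3C1 differed by -0.91 and -0.86, and THRB by -1.54 and -1.36. PTH1R did not keep its direction, at 0.23 among the G libraries and -0.83 between the T libraries, and THRA went from -0.83 to 0.01.

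In mouse none of the 7 receptors was called by edgeR's quasi-likelihood test, beside 0.304% of all genes, and 788 of the 10536 genes had an unadjusted p under 0.05. ESR1 was the only receptor with an unadjusted p under 0.05. The calvaria and tibia libraries of ESR1 and GHR did not overlap, 2 of 7 beside 40.0% of all genes. There were 4 fold changes below 0 and 3 above, with a median of -0.20 beside 0.04 for all tested genes.

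ESR1 had 42.3 and 28.3 normalized CPM in mouse calvaria M4 and M8 and 61.2 and 85.8 in tibia M5 and M7. Both tibia libraries lay above both calvaria libraries, as in macaque. The fold change of -1.06 (SE 0.30), 2.08-fold higher in tibia, had an edgeR quasi-likelihood adjusted p of 0.543. ESR1 was called, and was the only receptor called, in 4 of the alternatives that kept all libraries: with all mouse symbols tested (2.28% of symbols called), with DESeq2 (2.68%), with edgeR's exact test (3.25%) and with its likelihood ratio test (3.75%). The gene lies at chr10:4611593-5005614 on the plus strand of GRCm38, and no other gene of the annotation overlaps its exons.

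GHR followed with 39.2 and 14.5 normalized CPM in mouse calvaria and 56.8 and 51.1 in tibia. The tibia libraries lay close together, and both calvaria libraries lay below them, M8 far below. The fold change was -1.01 (SE 0.47), 2.01-fold higher in tibia, with an edgeR quasi-likelihood adjusted p of 0.707. Ghr lies at chr15:3317760-3583492 on the minus strand of GRCm38.

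PTH1R and VDR were set by the distance between the mouse calvaria libraries. PTH1R stood at 631.8 in M4 and 206.2 in M8 against 331.7 and 231.6 in tibia, so the calvaria libraries enclosed both tibia libraries. The fold change was 0.57 (SE 0.54) with an edgeR quasi-likelihood adjusted p of 0.803. VDR stood at 402.6 in M4 and 148.6 in M8 against 367.9 and 366.4 in tibia, with a fold change of -0.41 (SE 0.47) and an edgeR quasi-likelihood adjusted p of 0.832.

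Between the mouse calvaria libraries the higher value was 3.06 times the lower for PTH1R, 2.71 times for VDR and 2.71 times for GHR, where the median gene above 1 CPM differed 1.35-fold. In the mouse tibia these 3 receptors differed by at most 1.43-fold and the median gene by 1.12-fold. NR3C1 was the steadiest, at 1.20-fold in calvaria and 1.07-fold in tibia. M8 was the lower calvaria library for each of the 7 receptors tested. The 8 osteoblast markers, among them COL1A1, BGLAP and ALPL, summed to 49629 CPM in M4 and 20840 in M8. In tibia they summed to 32640 in M5 and 21722 in M7, the same order of libraries as for PTH1R. Single markers did not all keep that order. In normalized CPM BGLAP, ALPL and SP7 did, whereas COL1A1 was higher in M8 than in M7. IBSP was higher in M5 than in M4, and RUNX2 in M7 than in M5. The 5 fibroblast and periosteum markers summed to 3023 CPM in M4 and 826 in M8 against 3937 and 3381 in tibia. The neutrophil markers were higher in M8 than in M4. Of the fibroblast and periosteum markers 4 were tested, and only DCN lay below 0, at -1.41, while the list median was 1.12. Adipocyte markers (425 to 800 against 1206 to 1593) also had higher sums in mouse tibia without overlap. So did chondrocyte (18.7 to 92.01 against 596 to 737) and endothelial markers (82.2 to 95.7 against 127 to 146). No marker of these lists was at 0 throughout. Among the endothelial markers VWF went the other way, at 0.42. The part of these markers in the mouse values was not tested.

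**Figure D3:**
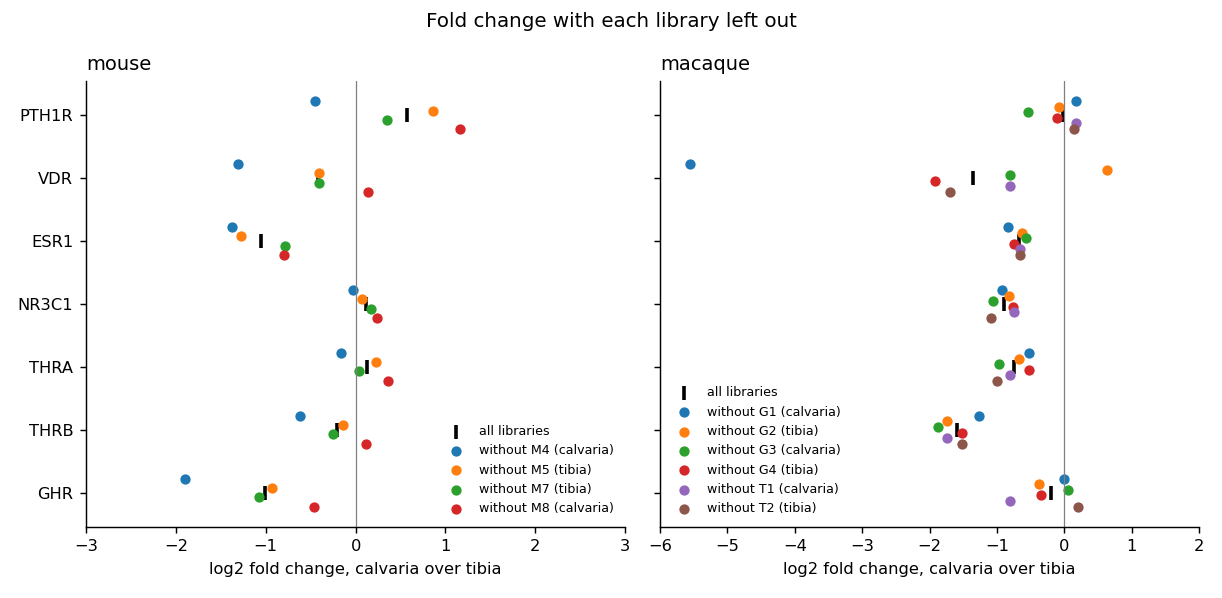
Log2 fold change of the 7 receptors tested (calvaria over tibia) with all libraries (black bar) and with each library left out (colored points), in mouse and macaque. ESR1, NR3C1 and THRB of macaque stay at -0.57 or lower with any library left out, whereas PTH1R of mouse moves from -0.45 without M4 to 1.17 without M8.

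Which calvaria library was left out therefore decided the mouse values. Without M4 PTH1R was -0.45 and VDR -1.30, and 5 of the 7 receptors were called, each below 0, beside 47.6% of all genes. Without M8 PTH1R was 1.17 and VDR 0.13, and 4 of the 7 were called beside 24.9% of all genes. In those fits the lone calvaria library is taken to vary like the tibia libraries. Without M5 or M7 none of the 7 was called. ESR1 and GHR kept their direction with every mouse library left out, at -1.38 to -0.78 and -1.90 to -0.46.

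NR3C1, THRA and THRB were not called in mouse with all libraries. NR3C1 had 397.4 and 331.5 normalized CPM in calvaria and 325.3 and 348.9 in tibia, with a fold change of 0.11 (SE 0.20) and an edgeR quasi-likelihood adjusted p of 0.892. THRA had 54.6 and 37.9 against 45.4 and 39.6 (0.12, SE 0.26) and THRB 17.8 and 10.7 against 17.1 and 15.8 (-0.20, SE 0.34). In each of these the calvaria libraries enclosed the tibia libraries or overlapped with them. THRB was called at -0.62 without M4 and stood at 0.11 without M8, and THRA stood at -0.16 without M4 and was called at 0.36 without M8. NR3C1 ran from -0.02 without M4 to 0.24 without M8 and was not called in either.

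The counts were made without regard to strand, and the exons of Pth1r at chr9:110722085-110747145 (minus strand, GRCm38) share 95 bases with Myl3, a muscle myosin light chain gene on the other strand. Thra at chr11:98740638-98769006 (plus strand) shares 263 bases, 5.7% of its 4614 annotated exon bases, with Nr1d1 on the other strand. The counted Thra row covered 2246 bases, and whether the counted rows hold the shared bases was not tested. Where they do, reads from the shared bases cannot be assigned to either gene.

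ESR2 and CASR were at the edge of detection in mouse. ESR2 had 0 reads in M4, 6 in M8 and none in tibia. CASR had 0 and 3 reads in calvaria and 6 and 17 in tibia. In the fit of all mouse symbols neither was called, at edgeR quasi-likelihood adjusted p of 0.836 for ESR2 and 0.778 for CASR. In rat ESR2 had no read and CASR had 7 in calvaria and 0 in tibia.

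The rat pair has no replicate, and its ratios compare 2 libraries rather than the sites. None of the 7 receptors had a log2 ratio past 2 in either direction, beside 7.16% of all genes. Of the 7, 6 were below 0, but so were 63.3% of all genes, and the median gene stood at -0.20. THRA moved most among the well counted receptors, with 298 reads in calvaria and 750 in tibia and a ratio of 0.364 (exact 95% interval 0.317 to 0.416), a log2 ratio of -1.46. ESR1 had 110 and 182 reads, a ratio of 0.553 (0.433 to 0.705), and PTH1R 2219 and 3012, a ratio of 0.674 (0.638 to 0.713). GHR had 175 and 251, a ratio of 0.638 (0.523 to 0.777), and THRB 230 and 316, a ratio of 0.666 (0.560 to 0.792).

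NR3C1, with 1335 and 1440 reads, had a ratio of 0.849 (0.787 to 0.915). Relative to the median gene its log2 ratio was -0.04, that of ESR1 -0.65, that of PTH1R -0.37, that of GHR -0.45 and that of THRB -0.39. VDR gave 4.58 on 10 and 2 reads with an interval from 0.975 to 43.0. The intervals cover counting error alone. The rat libraries also differed in their markers: those of neutrophils summed to 79474 CPM in calvaria and 42792 in tibia and those of skeletal muscle to 7.86 and 1033, and their part in the ratios was not tested.

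**Figure D4:**
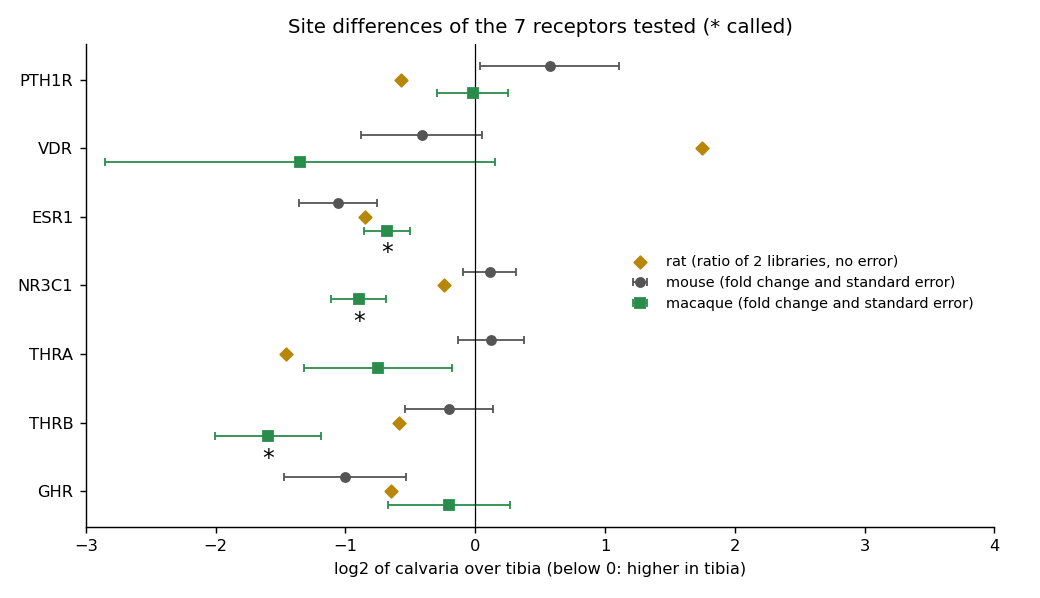
Log2 of calvaria over tibia for the 7 receptors tested: fold change with standard error in mouse (circles, 2 libraries a site) and macaque (squares, 3 a site) and the ratio of 2 libraries in rat (diamonds, no error). ESR1 lies below 0 in each species (-1.06, -0.85 and -0.68 in mouse, rat and macaque), and asterisks mark the macaque calls of ESR1, NR3C1 and THRB.

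Side by side, ESR1 and GHR were below 0 in mouse, rat and macaque, as was THRB. ESR1 stood at -1.06, -0.85 and -0.68, GHR at -1.01, -0.65 and -0.20, and THRB at -0.20, -0.58 and -1.60. With each mouse or macaque library left out ESR1 stayed below 0 in both species. GHR of macaque turned to 0.05 without G3 and 0.19 without T2, and THRB of mouse to 0.11 without M8. PTH1R, VDR, NR3C1 and THRA did not have the same sign throughout.

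Whether the site difference itself differed between mouse and macaque was tested as a species by site interaction over 10 libraries. None of the 7 receptors passed, beside 5.00% of all genes, and 2 of them, NR3C1 and THRB, had an unadjusted p under 0.05. For NR3C1 the macaque difference was the lower, by -0.996 (SE 0.35), with an edgeR quasi-likelihood adjusted p of 0.224, and for THRB by -1.37 (SE 0.62), with an edgeR quasi-likelihood adjusted p of 0.353. For ESR1 the interaction was 0.40 (SE 0.33) and for GHR 0.83 (SE 0.72). With edgeR's likelihood ratio test NR3C1 and THRB passed, beside 12.6% of all genes.

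To place the receptors in their pathways, 102 genes in 6 lists were followed, of which 76 were tested. In mouse none was called, beside the 0.304% of all genes, and the median fold change was -0.02 beside 0.04 for all tested genes. In macaque 8 were called higher in calvaria and 14 higher in tibia, 28.9% beside 26.7% of all genes. The 2 mouse genes with the smallest p in each list went both ways. CYP27B1 (5.45, on 0 to 5 reads a library), CALCR (1.23), RXRG (0.61), ESRRA (0.61), ARRB2 (0.58) and MED12 (0.42) were higher in calvaria. GREB1 (-2.06), NR3C2 (-1.85), THRSP (-1.81), SOCS2 (-0.96), KLF9 (-0.845) and STAT5A (-0.55) were higher in tibia.

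**Figure D5:**
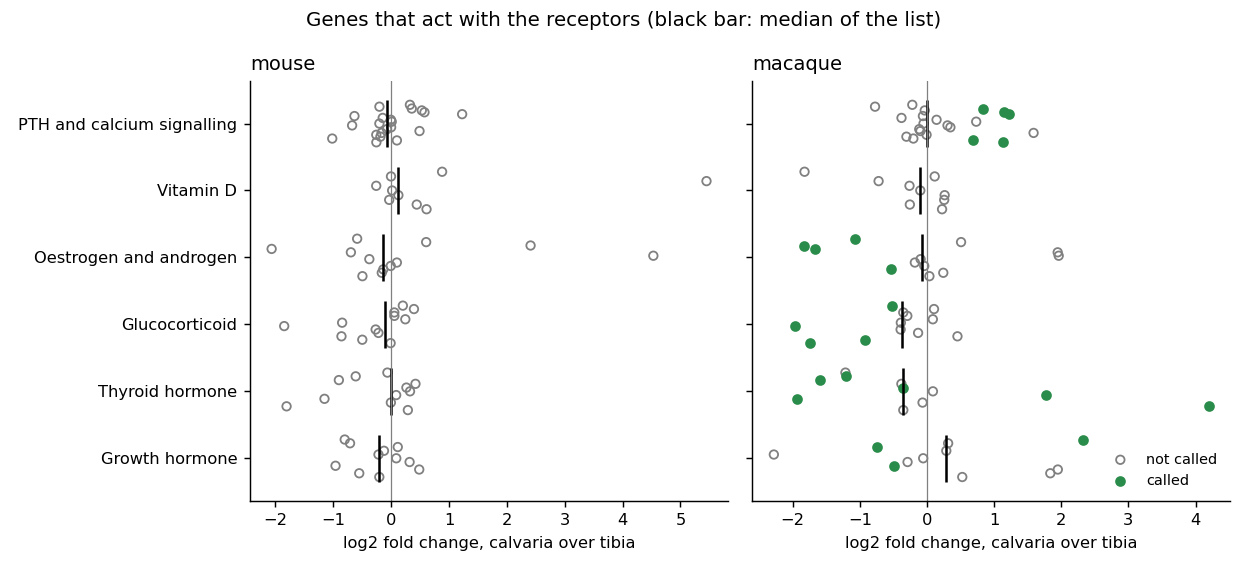
Log2 fold change (calvaria over tibia) of the 76 tested genes that make, carry, degrade or respond to the hormones, in 6 lists, in mouse and macaque; filled points were called and black bars are list medians. In macaque the called genes of PTH and calcium signalling lie above 0 and those of the oestrogen and androgen and the glucocorticoid lists below 0, and in mouse none is called.

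In the list of parathyroid hormone and calcium signalling 5 of 21 tested genes were called higher in macaque calvaria, where 1481 of all 10536 genes were, and none higher in tibia. The list as a whole stood at a median of -0.01 with 11 of the 21 below 0. ARRB2, a beta-arrestin that ends receptor signalling, had 138.9, 138.8 and 177.6 normalized CPM in calvaria and 64.5, 68.5 and 73.4 in tibia, a fold change of 1.14 with an edgeR quasi-likelihood adjusted p of 0.000512. SLC9A3R1, a scaffold that binds PTH1R, differed by 1.14, ADRBK1, a receptor kinase, by 0.83 and RGS2, a regulator of G protein signalling, by 0.68. CALCR, the calcitonin receptor of osteoclasts, was the fifth, at 1.22 on 8 to 39 reads, and lost its call when any of G1, G2, G3, G4 or T1 was left out. The neutrophil markers given above moved in the same direction, and their part was not tested.

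In the vitamin D list none of 9 tested genes was called in macaque, beside 26.7% of all genes. CUBN, an uptake receptor for the vitamin D binding protein, stood at -1.82 (edgeR quasi-likelihood adjusted p 0.293) and PDIA3 at 0.26 (0.338). CYP24A1, the enzyme that degrades active vitamin D and a classic target of VDR, was not tested. In mouse it had 0 reads in both calvaria libraries and 11 and 32 in tibia, and in rat 0 and 1, and macaque had none.

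Among oestrogen and androgen genes 4 of 12 were called higher in macaque tibia, beside 12.6% of all genes, and none higher in calvaria, with a list median of -0.07. GREB1, a known target of oestrogen signalling, had 16.2, 12.9 and 5.98 in calvaria and 52.8, 46.4 and 12.3 in tibia, so that T2 lay within the calvaria range. Its fold change was -1.66 with an edgeR quasi-likelihood adjusted p of 0.0253. In mouse GREB1 had 11.8 and 0.779 in calvaria and 25.7 and 27.5 in tibia, with a fold change of -2.06 and an edgeR quasi-likelihood adjusted p of 0.719. The coactivator NCOA3 stood at -0.53 and the orphan receptor ESRRG at -1.83. Both lost their calls with the offset for exonic length, NCOA3 also without G2 and ESRRG without G1, G3, G4 or T1.

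Of the glucocorticoid genes 4 of 12 were likewise called higher in macaque tibia, beside 12.6% of all genes, and none higher in calvaria, with a list median of -0.37. NR3C2, the mineralocorticoid receptor, which also binds glucocorticoids, had 1.09, 0.960 and 1.81 normalized CPM in calvaria and 4.78, 5.36 and 5.11 in tibia. The sites stood well apart on 5 to 35 reads, with a fold change of -1.96 and an edgeR quasi-likelihood adjusted p of 0.0292. In mouse NR3C2 had 0.856 and 0.890 in calvaria and 3.41 and 2.92 in tibia, with a fold change of -1.85 and an edgeR quasi-likelihood adjusted p of 0.616. ZBTB16, which glucocorticoids induce, was higher in tibia libraries G2 and G4 (108.1 and 118.4) than in any calvaria library (21.8, 23.4 and 26.4), whereas T2 stood at 14.2. Its fold change was -1.74, and its call was lost without G3. TSC22D3 at -0.92 and DUSP1 at -0.51 lost their calls with the length offset and without most single libraries (G1, G2, G3, G4 or T1 for TSC22D3, and G2, G3, G4 or T1 for DUSP1).

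In the thyroid hormone list 2 of 11 genes were called higher in macaque calvaria and 4 higher in tibia, beside 26.7% of all genes called in either direction. DIO2, the deiodinase that makes the active hormone, had 102.7, 87.8 and 76.1 normalized CPM in calvaria and 213, 225.3 and 177.7 in tibia, a fold change of -1.21 with an edgeR quasi-likelihood adjusted p of 0.000351. DIO3, the deiodinase that inactivates it, stood at 7.10, 4.80 and 3.62 against 23.4, 15.4 and 8.03, a fold change of -1.59. So the activating and the inactivating enzyme were both higher in tibia. The transporter SLCO1C1 stood at -1.93, and the corepressor NCOR1, named after its value was seen, at -0.36. The transporter SLC16A10 was higher in calvaria at 1.77, as was THRSP, a gene of lipid synthesis that thyroid hormone induces, at 4.20 on 0 to 25 reads a library, a call that was lost without G3. In mouse THRSP went the other way, with 6.47 and 3.23 in calvaria and 14.5 and 19.6 in tibia and a fold change of -1.81 with an edgeR quasi-likelihood adjusted p of 0.483.

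Growth hormone genes gave 1 call higher in macaque calvaria and 2 higher in tibia among 11, beside 26.7% of all genes called in either direction. CISH, an inhibitor induced by STAT5, stood at 10.9, 2.88 and 4.17 normalized CPM in calvaria and 0.824, 0 and 2.63 in tibia, a fold change of 2.32 with an edgeR quasi-likelihood adjusted p of 0.0817 that was lost without G1 or G2. SOCS2, another such inhibitor, stood at -0.49, and IGF1R at -0.74, and both calls were lost without G2, G3, G4 or T1 and with the length offset. In mouse SOCS2 had 103.4 and 59.5 in calvaria and 154.1 and 162.7 in tibia, with a fold change of -0.96 and an edgeR quasi-likelihood adjusted p of 0.616. The direction of its mouse values was that of GHR.

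The split over all 6 lists depended on exonic length. With the length offset 13 of the 76 genes were called higher in macaque calvaria and 8 higher in tibia, the reverse of 8 and 14. Over all genes the split went from 1481 higher in calvaria and 1331 in tibia to 1658 and 868 with the length offset, and to 1201 and 1759 with library size alone. Leaving out a library gave 6 to 11 pathway genes higher in calvaria and 8 to 21 higher in tibia. The largest of these counts, 11 and 21, came without T2, and every other library left out except G1, which gave 6 and 11, gave 8 higher in tibia. Over all genes 34.3% were called without T2 and 16.4% to 21.6% without any other macaque library.

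The genes most like each receptor were taken by Pearson's r over the 10 mouse and macaque libraries, centered within each species, among 7659 genes. These values describe libraries that share site and depth, and the genes named are the 3 highest of the 7659 for each receptor. In macaque VDR had only 0 to 15 reads a library and THRA 8 to 28. ESR1 was followed most closely by EXTL2 (0.989), HEY2 (0.981) and LEPR (0.976), and GHR by PLOD2 (0.977), BMP2 (0.932) and IRX5 (0.929). For NR3C1 they were NUB1 (0.972), ZSCAN21 (0.967) and EPC2 (0.967), and for THRB SEC63 (0.969), PHKA1 (0.967) and DZIP1L (0.952). PTH1R was most like CREB3 (0.946), DNPEP (0.939) and UBE2Q2 (0.928), VDR like IMPACT (0.925), LANCL1 (0.914) and CCNYL1 (0.908), and THRA like WDR75 (0.944), ANKZF1 (0.943) and TNRC6A (0.940).

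Among the receptors themselves NR3C1 and THRA were most alike (r = 0.785 over the 10 libraries), followed by THRA and THRB (0.766), NR3C1 and THRB (0.687) and ESR1 and GHR (0.621). PTH1R stood apart, with r between -0.07 and 0.384 to the other receptors.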

How the data were processed

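Periosteum was removed, the bone was treated briefly with collagenase, and marrow was spun out of the rodent tibias. Polyadenylated RNA was sequenced and counted without strand by HTSeq on merged exons. The methods name HISAT2 as the aligner, whereas the submitters' processing notes name BWA 0.7.10-r789. As deposited, the tables hold raw read counts per gene, with exonic lengths; the authors' normalized signal beside them was not used. Rows that named no gene (0.00261% to 0.0663% of reads) were left out. Symbols were put in upper case, and 5939 of 17111 macaque LOC rows were renamed through a RefSeq table of a newer assembly, used for names only. Mouse positions are from GENCODE vM21.

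Counts were fitted with edgeR 4.0.16 in R 4.3.3 (TMM, quasi-likelihood), checked on simulated data, with DESeq2 1.42.0 among the alternatives. The prior count was 2 for centered log2 values, 1 read was added to rat counts, and rat had no replicates. Named were all 9 receptors, up to 4 called genes per pathway list and species with the smallest p (the 2 smallest where none was called), and 3 like genes per receptor; 1 gene that the rule names is not reported here. The receptors and the lists were chosen with earlier results of these data known. Depth limits VDR, THRA and GHR of macaque most, and ESR2 and CASR throughout.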

Additional observations from a re-analysis of the deposited data

How the results depend on the processing

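ESR1, NR3C1 and THRB were called in macaque under all 21 alternatives. These varied the scaling, the filter, the test, the threshold, an offset for length, the label letter and the libraries. With each library left out their fold changes were -0.83 to -0.57, -1.08 to -0.74 and -1.87 to -1.27. With the length offset they were -0.36, -0.61 and -1.25, at edgeR quasi-likelihood adjusted p of 0.196, 0.0630 and 0.0719. Their rows were the longest of the receptors tested in macaque (7824, 5244 and 7607 bases, against 1160 to 2136). Over the 10536 genes, macaque fold change and exonic length had a Spearman correlation of -0.21. In mouse the number of receptors called was 1 (ESR1) with all symbols, DESeq2, the exact test or the likelihood ratio test, and 0 to 5 with a library left out. The mouse fold change of PTH1R turned to -0.45 without M4 and was 1.17 without M8. The receptors with an interaction were 2 with the likelihood ratio test (NR3C1 and THRB), beside 12.6% of all genes. Without T2 NR3C1 alone passed, beside 9.92% of all genes, and no receptor passed without any other macaque library. Without M8, which leaves 1 mouse calvaria library, the interactions of NR3C1 and THRB were -1.10 and -1.67. In rat 2 receptors (VDR and THRA) passed a threshold of 1, beside 2449 of the 10536 genes. VDR did so on 10 and 2 reads, and with 5 reads added its log2 ratio was 0.97. Over all genes, calls in mouse numbered 32, and 2 to 510 under alternatives that kept every library, with 395 by the likelihood ratio test, 342 by the exact test and 282 by DESeq2. Without M4 they numbered 5016, without M8 2620, without M5 11 and without M7 9. In macaque they numbered 2812, with 1325 at a false discovery rate under 0.05, 1730 without G2 and up to 3784. The cause of these changes was not tested. Library size alone moved the median gene of mouse from 0.04 to -0.08 and that of macaque from 0.01 to -0.09, and TMM scaling moved that of rat from -0.20 to 0.00.

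The labels give the groups no shared replicate numbers. The methods speak of paired calvaria and tibia without naming the pairs, so the replicate block was fitted with 2 sets of assumed pairs. With either block 0 receptors were called in mouse and 3 in macaque, and the mouse calls over all genes went from 32 to 63 and 78. No call of a receptor changed with the block.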
